A study of Gadus morhua with 47 samples.

Results

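The high-dose mixture arm of a liver slice experiment in Atlantic cod (Gadus morhua) was compared with its vehicle control. It comprised 14 of the 47 RNA-seq libraries, chosen by their titles: 6 slices that received benzo[a]pyrene (BaP) at 1 µM together with ethynylestradiol (EE2) at 1 µM, here called Mix 1 µM, and 8 slices that received only the solvent dimethyl sulfoxide (DMSO). Precision-cut liver slices are thin sections of fresh liver kept in culture, so every slice holds the mixed cell types of the organ. Each slice was 1 library, and the number in a title is the number of the fish it came from. DMSO slices came from all 8 fish, of which 1, 2, 4, 5 and 7 were male and 3, 6 and 8 female. Mix 1 µM slices came from fish 2, 3, 4, 5, 6 and 8, which gave 6 fish with both slices. The other 33 libraries were slices of the same fish under BaP alone, EE2 alone or the mixture, each compound at 10 nM or 1 µM, and they entered the fit so that all slices of a fish informed its baseline. Fish age and the length of exposure were not stated in the labels.

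BaP is a polycyclic aromatic hydrocarbon formed by incomplete combustion. In vertebrate liver it binds the aryl hydrocarbon receptor, which moves to the nucleus, pairs with its partner ARNT and switches on genes of xenobiotic metabolism, cytochrome P450 1A enzymes among them. EE2 is the synthetic estrogen of contraceptive pills and a contaminant of surface waters. In egg-laying fish, liver estrogen receptors respond to estrogens by switching on vitellogenins and eggshell proteins, which females make before spawning and males normally make very little of. A slice given both compounds therefore receives ligands of a pair of separate transcription factors. Interaction between the 2 pathways is known from fish liver as background, but the deposited identifiers are Ensembl cod transcript identifiers that were paired with no gene name, so none of the transcripts below can be assigned to either pathway by name.

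The 14 libraries held 36.6 M to 58.6 M mapped read segments (M, mega). Both mates of a pair appear to be counted, and how secondary alignments were treated was not stated. A library of DMSO from fish 2 and the library of Mix 1 µM from fish 8 were unlike the other slices of their own fish. Their mean correlation with those slices was 0.935 and 0.895, against 0.951 to 0.982 in the remaining 12. Their scaling factors were 0.678 and 0.572 against 0.898 to 1.27, and the Mix 1 µM library of fish 8 had counts for 15975 transcripts, the fewest of all 47. In both libraries, level relative to the rest of the fish fell with transcript length, with slopes of -0.35 and -0.52 against -0.03 to 0.32 in the remaining 12. RNA quality values of the slices were not used here, and the part of these library differences in each result was not tested. The counts of calls and the summed levels are therefore given with and without both. So are the folds of transcripts described by name or length, where the fold moved by over 1.5 times or the call was lost.

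Few transcripts were called in Mix 1 µM against DMSO, and nearly all of the calls were rises. Transcripts that missed the threshold are not thereby shown to be unchanged. Of 17824 transcripts with enough counts to test, 73 passed an adjusted p of 0.05 (edgeR quasi-likelihood test with fish as a block, Benjamini-Hochberg adjustment), which is 0.41%. Rises numbered 66 (0.37%) and falls 7 (0.0393%). Without the 2 libraries the same test called 54 rises and 4 falls, of which 51 rises and 4 falls were among the original 73. Leaving out the Mix 1 µM library of fish 8 alone gave 58 rises and 2 falls, and leaving out DMSO of fish 2 alone gave 61 rises and 10 falls. Leaving out fish 3 altogether gave 38 rises and 5 falls, and there were 3 falls without fish 5 or without fish 6. The median log2 fold change of the 66 rises, 3.11 in the reported fit, was 2.46 without the 2 libraries. An unadjusted p under 0.05 was reached by 1046 transcripts (5.87%), by 1109 without the Mix 1 µM library of fish 8, by 2118 without DMSO of fish 2 and by 874 without both, where 5% of the 17824 tested is 891. The closest called transcripts had adjusted p-values of 0.0479, 0.0485 and 0.0488, and the nearest that were not called had 0.0510, 0.0512 and 0.0515.

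**Figure D1:**
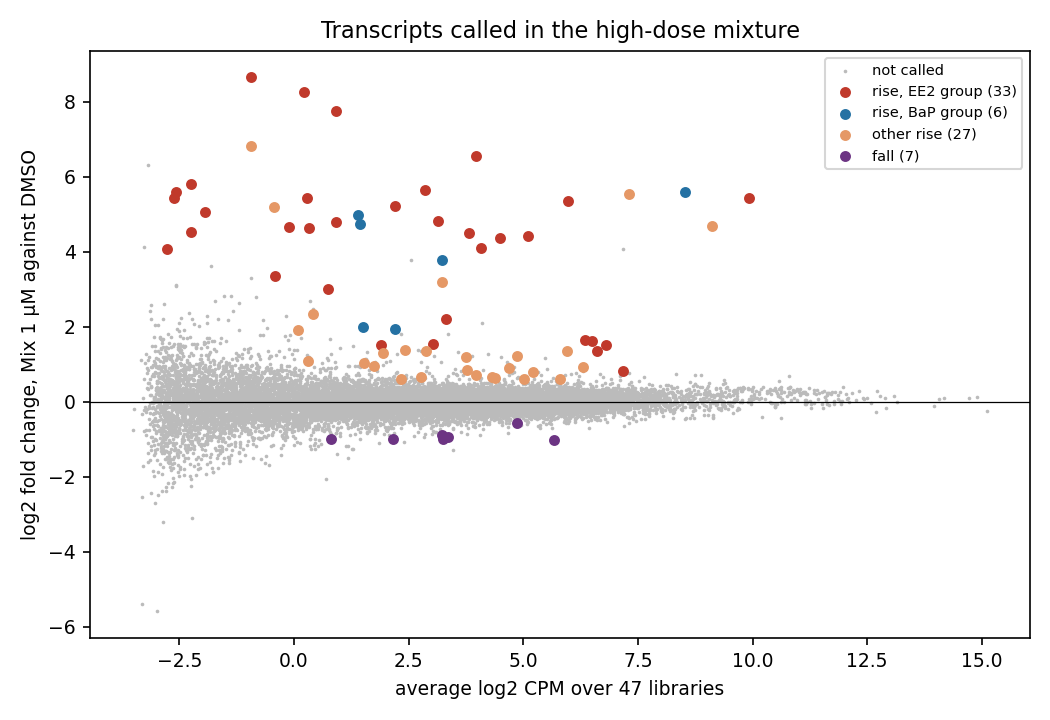
Each point is 1 of the 17824 tested transcripts, with its average level over the 47 libraries on the horizontal axis (log2 CPM) and its log2 fold change in Mix 1 µM against DMSO on the vertical axis; coloured points are the 73 called transcripts by group. The 66 rises reach 8.65 on the log2 scale, while the 7 falls lie between -1.002 and -0.55.

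The rises were large and the falls small. The median log2 fold change was 3.11 over the rises, with values of 0.62 to 8.65, and -0.98 over the falls, with a range of -1.002 to -0.55, against 0.00 over all tested transcripts. Of the rises, 34 were 8-fold or more, 19 lay between 2-fold and 8-fold, and 13 were under 2-fold. Many rises started from near silence. In 29 of 66 (43.9%) the DMSO mean was under 1 CPM (counts scaled to a common library size after TMM normalization), against 21.5% of all tested transcripts, and 26 of these 29 rose 8-fold or more. Of the 19 rises with a DMSO mean of 10 CPM or more, 4 rose that much. A transcript near 0 counts in DMSO passes the expression filter only through higher levels in other treatments. Low counts also need a larger fold to be called. These shares are therefore partly set by the filter and the call rule. The median coding length was 1034 bases in the rises, 1569 bases in the falls and 1137 bases over all tested transcripts. In these whole-slice libraries, a change in RNA per cell and a change in the number of cells of a type cannot be told apart.

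Direction held across most fish. Comparing the slices of each fish, 44 of 66 rises were higher in 6 of 6 fish and 19 in 5 of 6, and 6 of the 7 falls were lower in 6 of 6. Over all tested transcripts, 194 (1.09%) were higher and 223 (1.25%) lower in 6 of 6 fish. In the 4 fish that neither of the 2 libraries touches, 61 of 66 rises were higher and 7 of 7 falls lower in all 4, against 6.42% and 7.25% of all tested transcripts. In 13 rises every Mix 1 µM library lay above every DMSO library, which was the case for 14 transcripts (0.0785%) in all. The falls had no such case: Mix 1 µM and DMSO overlapped in all 7, and 1 tested transcript (0.00561%) that was not called lay below throughout. The rises and falls were called from these same slices, and a call with fish as a block favours changes that share a direction across fish. Their agreement in direction is therefore partly set by the call. The shares over all tested transcripts are given for scale and are no independent check of it.

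**Figure D2:**
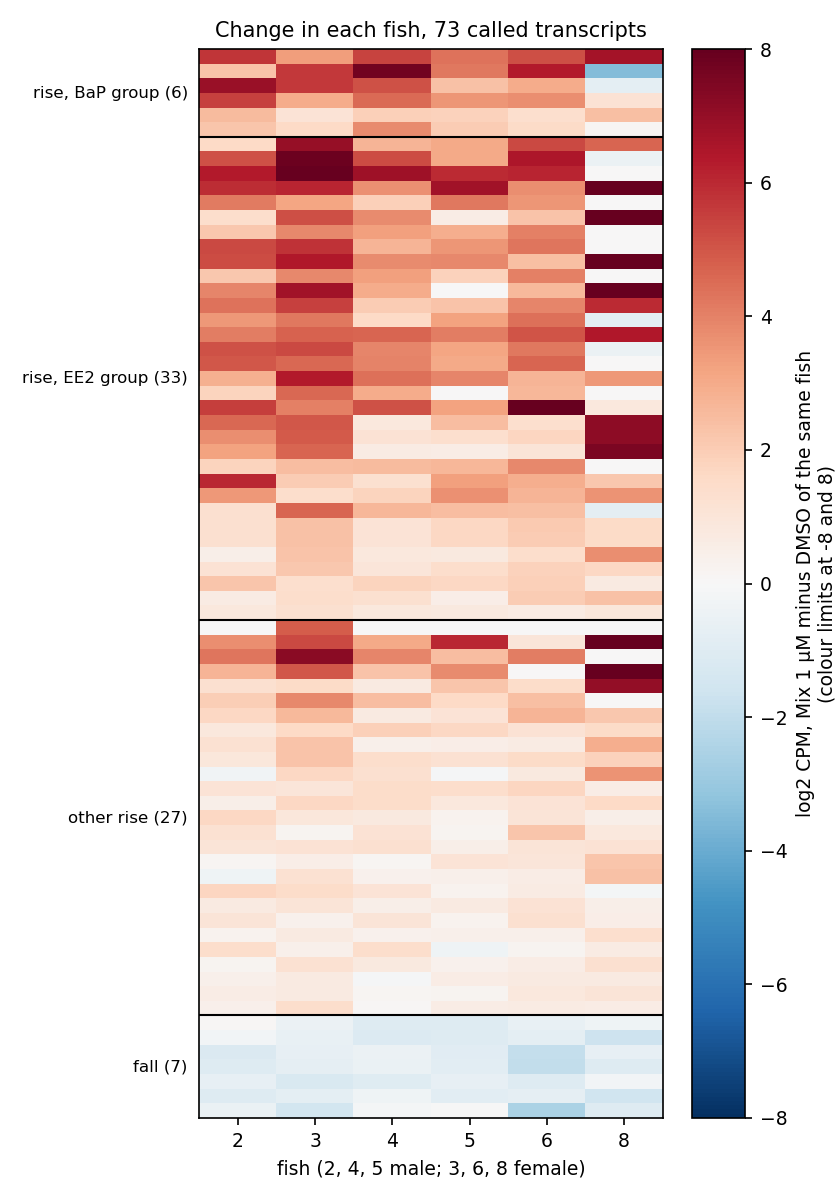
Each row is 1 of the 73 called transcripts and each column 1 of the 6 fish with both slices; the colour is log2 CPM in Mix 1 µM minus DMSO of the same fish, limited as the colour bar shows. Fish 8 shows the most rises that did not increase, 18 of 66, beside 13 that increased by more than 5.

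The rises were sorted by contrasts whose own groups held none of the 14 libraries. Those groups include BaP 10 nM of fish 6 and BaP 1 µM of fish 7, also unlike the other slices of their fish. Their mean correlations with those slices were 0.941 and 0.903, and their slopes on transcript length -0.30 and -0.65. The sets were not formed again without them. Here and below, the 2 libraries are only DMSO of fish 2 and Mix 1 µM of fish 8. Of the 66, 6 (9.09%) were also called higher in BaP 1 µM than in BaP 10 nM, a contrast that called 6 transcripts (0.0337%), so the overlap was the whole of that list. They are referred to as the BaP group. A further 33 (50%) were also called higher in Mix 10 nM than in BaP 10 nM, where 41 transcripts (0.23%) were called, so the overlap was 80.5% of that list. This contrast differs by the addition of EE2 at 10 nM, and these 33 are referred to as the EE2 group. The remaining 27 rises were called in neither. All contrasts come from 1 fit that shares its estimate of the spread and of each fish's baseline, and the names state the contrast only.

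The BaP group rose in every exposed slice when its levels were summed. Its median log2 fold change was 4.26, with a range of 1.94 to 5.6. The summed level of the 6 transcripts lay between 8.64 and 82.0 CPM in the 8 DMSO libraries and between 703 and 1759 CPM in the 6 Mix 1 µM libraries, so the groups did not overlap. The means were 32.8 ± 23.96 CPM (SD, n = 8) and 1040 ± 405 CPM (SD, n = 6), and without the 2 libraries 34.03 ± 25.6 (SD, n = 7) and 1107 ± 413 (SD, n = 5). By fish the median log2 change of the 6 was 3.996, 3.15, 4.83, 2.92, 3.36 and 0.65 in fish 2, 3, 4, 5, 6 and 8, with 4 of the 6 higher in fish 8 and all 6 in the others. All 6 were called in each fit that left out 1 fish or the libraries named above, 4 of 6 with limma and fish as a random effect, and 1 of 6 on the 14 libraries alone.

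ENSGMOT00000000331.1, a transcript of 1560 coding bases, made up nearly all of that level and was the largest rise of the BaP group. In fish 1 to 8 its DMSO level was 9.32, 20.2, 73.1, 39.8, 32.6, 30.9, 3.09 and 6.84 CPM. In Mix 1 µM it was 1054, 739.5, 1673, 674.4, 1110 and 693.3 CPM in fish 2, 3, 4, 5, 6 and 8. Every exposed slice was above every control slice, and the exposed slices spanned a narrower relative range than the controls. The log2 fold change was 5.6 ± 0.53 (SE) at an adjusted p of 5.04e-09 (edgeR quasi-likelihood test, Benjamini-Hochberg). By fish the log2 change was 5.70, 3.34, 5.39, 4.37, 5.16 and 6.66. Fish 3, with the highest control level, had the smallest change, and fish 8, with the lowest control level among paired fish, had the largest. The control level is subtracted in each change, so this order is partly set by the calculation. The exposed slice of fish 8 is also a library unlike the rest of its fish. Without the 2 libraries the log2 fold change was 5.03 and the means were 27.96 ± 24.6 (SD, n = 7) and 1050 ± 397 CPM (SD, n = 5). Over the other treatments its mean was 64.9 ± 41.4 CPM in BaP 10 nM (SD, n = 7), 1426 ± 708 in BaP 1 µM (SD, n = 7), 33.4 ± 36.1 in EE2 10 nM (SD, n = 7), 37.8 ± 36.8 in EE2 1 µM (SD, n = 6) and 33.02 ± 24.5 in Mix 10 nM (SD, n = 6). High levels were thus seen in the treatments with BaP at 1 µM.

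The other 5 transcripts of the BaP group were expressed at far lower levels. One of 2055 coding bases had a DMSO level of 0.708 to 3.66 CPM, and in Mix 1 µM 32.4, 28.96, 45.3, 15.6, 20.7 and 2.76 CPM in fish 2, 3, 4, 5, 6 and 8. Its log2 fold change was 3.79 ± 0.36 (SE), adjusted p 4.72e-09 (edgeR, Benjamini-Hochberg). All exposed slices but that of fish 8 were above the controls. The transcripts of 1182 and 888 coding bases were under 0.5 CPM in every DMSO library and between 1.49 and 15.1 CPM in Mix 1 µM of fish 2 to 6, but had 0 counts in the exposed slice of fish 8. Without the 2 libraries 1 of them rose by 5.67 on the log2 scale, against 4.995 with all. The other rose by 4.87, against 4.73. The remaining 2, of 918 and 3087 coding bases, rose by 1.99 ± 0.26 and 1.94 ± 0.34 (log2, SE). The first of them did not overlap, at 0.659 to 2.81 CPM in DMSO and 3.63 to 6.63 CPM in Mix 1 µM.

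The EE2 group held the 3 steepest rises, and its summed level differed widely between exposed slices. Its median log2 fold change was 4.63, with a range of 0.83 to 8.65, and the median DMSO level of its transcripts was 0.304 CPM against 7.88 CPM for the 27 rises in neither set. The summed level was 248 to 482 CPM in the 8 DMSO libraries. In Mix 1 µM it was 1081, 6219, 858.5, 691.9, 1271 and 15630 CPM in fish 2, 3, 4, 5, 6 and 8. All exposed slices were above all controls, but fish 8 and fish 3 were far above the other 4. Most of the sum in fish 8 and 3 came from the transcript described below as the most abundant exposed one. It held 12920 CPM in fish 8 and 4426 in fish 3, but 65.9 in fish 6. Fish 8 and 3 are female, and the third female, fish 6, was close to the male fish 2. The Mix 1 µM mean was 4292 ± 5941 CPM (SD, n = 6) and, without the 2 libraries, 2024 ± 2355 (SD, n = 5), against 332 ± 72.0 in DMSO (SD, n = 8). The size of the mean therefore depends on the exposed slice of fish 8. Fish 8 also had the highest sum in the other treatments with EE2. It was 11960 CPM in EE2 1 µM, 5641 in Mix 10 nM and 4446 in EE2 10 nM. As a share of mapped counts, before scaling, the Mix 1 µM slices of fish 8 and 3 held 0.894% and 0.610%. The EE2 1 µM slice of fish 8 held 1.506%. The part of fish and library in these levels was not tested.

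By fish the median log2 change of the 33 was 3.49, 4.60, 2.69, 2.63, 2.73 and 1.56 in fish 2, 3, 4, 5, 6 and 8. Between 32 and 33 of the 33 were higher in the exposed slice in the first 5 of these fish, and 21 in fish 8. The Mix 1 µM library of fish 8 had 0 counts for 12 of the 33 and for 17 of all 66 rises, and those 17 had a median level of 2.41 CPM in the other 5 exposed slices, against 21.5 CPM for the 49 with counts. The same 12 transcripts were also low in the other slices of fish 8 that received EE2. Those slices had 3 counts or fewer for 11 of 12 in EE2 10 nM, 10 of 12 in EE2 1 µM and 10 of 12 in Mix 10 nM. Low counts were not confined to fish 8. Among the 12, ENSGMOT00000002434.1 also had 0 counts in EE2 10 nM and Mix 10 nM of fish 7. The part of fish and library in these 0 counts was not tested. The Mix 1 µM library of fish 8 also held over 50% of the exposed level of 12 rises, 8 of them in the EE2 group. A limit of 3 counts was 0.0418 to 0.131 CPM across the 14 libraries, for counting error only, so 0 counts there limit a level to about that.

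ENSGMOT00000002434.1, with 321 coding bases, was the largest rise of the EE2 group past the criteria for naming. Its counts were 0 in 7 DMSO libraries and 1 in that of fish 8. In Mix 1 µM they were 83, 395, 53, 11, 164 and 0 in fish 2, 3, 4, 5, 6 and 8, or 1.28, 8.95, 1.41, 0.278, 3.49 and 0 CPM. It appeared in 5 of 6 exposed slices and was undetected in the one of fish 8. Pooled and scaled to library size, 706 counts against 1 gave a ratio of 1112 with an exact 95% interval of 199 to 43969, which covers counting error only. The fitted log2 fold change was 8.26 ± 0.72 (SE), with an adjusted p of 6.87e-09 (edgeR quasi-likelihood test, Benjamini-Hochberg), and its size depends on the prior count. The call was lost in 1 of 19 alternatives, limma with fish as a random effect (log2 fold change 6.07, adjusted p 0.0878), and the transcript was below the expression filter in the fits on 14 and 12 libraries. Its means were 2.35 ± 3.09 CPM in EE2 10 nM (SD, n = 7), 2.65 ± 3.55 in EE2 1 µM (SD, n = 6), 0.869 ± 1.202 in Mix 10 nM (SD, n = 6) and 2.57 ± 3.36 in Mix 1 µM (SD, n = 6), against 0.0163 ± 0.0318 in BaP 10 nM (SD, n = 7) and 0 counts in all 7 libraries of BaP 1 µM. The ranges of these 4 groups overlapped.

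Several other transcripts of the EE2 group show the range within it. The largest fitted rise of all, of 690 coding bases, had 0 counts in all 8 DMSO libraries and 334 over the 6 exposed ones, which is at least 175-fold higher when the controls are set to 3 counts over the group. Of the 334 counts, 217 came from fish 3, and without that slice the bound is 74.2-fold. A transcript of 1188 coding bases was the steadiest of the steep rises. It was between 0.292 and 0.939 CPM in DMSO and reached 14.2, 24.8, 12.3, 8.94, 31.4 and 30.4 CPM in fish 2, 3, 4, 5, 6 and 8, which is 4.83 ± 0.40 (SE) on the log2 scale (adjusted p 1.89e-10, edgeR, Benjamini-Hochberg). It was called in all 21 alternative settings tried.

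The most abundant exposed transcript of the EE2 group behaved otherwise. With 4902 coding bases, it was 5.08 to 52.9 CPM in DMSO and 343, 4426, 109.2, 73.5, 65.9 and 12920 CPM in fish 2, 3, 4, 5, 6 and 8. Every exposed slice exceeded every control, by a small margin in fish 5 and 6 and by far in fish 3 and 8. Its log2 fold change was 5.44 ± 0.88 (SE), adjusted p 2.40e-04 (edgeR, Benjamini-Hochberg), and it was 4.84 without the Mix 1 µM library of fish 8 and 4.73 without both libraries. At the other end were 3 transcripts of 642, 645 and 651 coding bases that were already abundant. They were 22.2 to 93.1 CPM in DMSO and 70.6 to 268 CPM in Mix 1 µM and rose by 1.53 to 1.64 on the log2 scale, each with an SE of 0.19 to 0.21.

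Some of these transcripts do not count as separate observations. Over the 33 libraries outside the comparison, members were linked where their log2 levels correlated at 0.99 or more, which left 67 clusters among the 73. Of these, 4 clusters held more than 1 transcript, with 10 members in all. They included the 3 abundant transcripts of 642 to 651 coding bases, 3 of 4926 to 5052 coding bases, and a pair among the falls. The 3 of 4926 to 5052 coding bases rose by 4.11 to 4.43 on the log2 scale. Without DMSO of fish 2 and Mix 1 µM of fish 8 they rose by 3.145 to 3.51. In the 4 fits that left out libraries, they were called 2, 2 and 0 times. Transcripts of closely related genes may share reads here, so the split of counts within such a cluster is uncertain.

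The 27 rises in neither set were mostly smaller and started from higher levels. Their median log2 fold change was 1.09, with a range of 0.62 to 6.84. The summed level was 202 to 1111 CPM in DMSO and 587 to 13750 CPM in Mix 1 µM, so the groups overlapped. The means were 395 ± 297 (SD, n = 8) and 3197 ± 5195 CPM (SD, n = 6), and without the 2 libraries 404 ± 320 (SD, n = 7) and 1086 ± 565 (SD, n = 5).

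In a few of the 27 the change was uneven between fish or rested on 1 slice. The transcript of 1074 coding bases was 2.48 to 592 CPM in DMSO, with 592 in fish 6, and in Mix 1 µM 116.8, 480.5, 285.3, 82.2, 592.1 and 10270 CPM in fish 2, 3, 4, 5, 6 and 8. Fish 6 had the same level in both slices, and fish 8 exceeded all others. By fish the log2 change was 2.70, 4.96, 2.31, 3.77, 0 and 9.38. The slice of fish 8 was also the highest in EE2 1 µM, at 2935 CPM, but not in Mix 10 nM. Its log2 fold change was 4.68 ± 1.03 (SE) and 3.54 without the 2 libraries, and it was called in 11 of 21 alternatives. A transcript of 492 coding bases had counts in 1 exposed slice only, that of fish 3, at 1.09 CPM, and its fitted log2 fold change of 6.84 ± 1.39 (SE) rests on that library. By contrast, a transcript of 249 coding bases changed little but evenly. It was 1.59 to 3.29 CPM in DMSO and 3.01 to 5.10 CPM in Mix 1 µM, higher in 6 of 6 fish, and rose by 0.97 ± 0.16 (SE) on the log2 scale (adjusted p 3.07e-04, edgeR, Benjamini-Hochberg).

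The 7 falls were moderate and less stable than the rises of the BaP and EE2 groups. All lay within -1.002 to -0.55 on the log2 scale, 6 of them under 2-fold, and 5 had a DMSO mean of 10 CPM or more. Their median change by fish was -0.65, -0.72, -0.56, -0.84, -1.06 and -1.01 in fish 2, 3, 4, 5, 6 and 8, against -0.18 to 0.09 over all tested transcripts. The summed level was 147 ± 95.7 CPM in DMSO (SD, n = 8) and 65.9 ± 38.04 in Mix 1 µM (SD, n = 6), with overlapping ranges of 39.4 to 333 and 24.2 to 134 CPM. Without the 2 libraries it was 139 ± 101 (SD, n = 7) and 64.6 ± 42.4 CPM (SD, n = 5). The falls therefore appear within fish and not as a separation of the groups. Of the 7, 4 were called without the 2 libraries, and 1 was called in every fit that left out a fish or those libraries. Of the 27 other rises, 4 were called in every such fit.

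ENSGMOT00000007691.1, with 3585 coding bases, was the largest fall. Its DMSO level was 207, 120, 5.80, 22.8, 35.3, 8.01, 135 and 24.7 CPM in fish 1 to 8. In Mix 1 µM it was 83.3, 2.06, 20.2, 34.8, 1.38 and 11.95 CPM in fish 2, 3, 4, 5, 6 and 8. Fish differed more than treatments: the control levels span from 5.80 to 207 CPM, and the groups overlap. The log2 change by fish was -0.52, -1.48, -0.18, -0.02, -2.50 and -1.04, so fish 4 and 5 hardly moved. In fish 3, 6 and 8 the DMSO slice was above every other slice of its fish. This was not so in fish 2, 4 and 5. In the treatments outside the comparison, fish 3 held 1.42 to 2.83 CPM and fish 6 held 1.56 to 5.03 CPM. The lowest of these were the BaP 10 nM slices, at 1.42 and 1.56 CPM. The part of single DMSO slices in this fall was not tested. The log2 fold change was -1.002 ± 0.23 (SE), adjusted p 0.0274 (edgeR quasi-likelihood test, Benjamini-Hochberg), and the call was lost in 10 of 21 alternatives, with adjusted p-values from 0.00338 to 1. Without the 2 libraries it was -1.07 with an adjusted p of 0.0335, and without the Mix 1 µM library of fish 8 alone -0.99 with 0.067.

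ENSGMOT00000006154.1, with 555 coding bases, was the next fall. It was 8.74, 9.88, 3.90, 1.52, 5.93, 9.48, 4.11 and 3.30 CPM in DMSO of fish 1 to 8, and 4.71, 2.27, 1.199, 3.29, 5.74 and 1.05 CPM in Mix 1 µM of fish 2, 3, 4, 5, 6 and 8. All 6 fish were lower in the exposed slice and the groups overlap. The log2 fold change was -0.98 ± 0.22 (SE), adjusted p 0.0245 (edgeR quasi-likelihood test, Benjamini-Hochberg). The call was lost in 14 of 21 alternatives, over which the adjusted p ran from 0.00264 to 1, and without the 2 libraries the change was -0.80 with an adjusted p of 0.236. A pair of falls of 1857 and 1698 coding bases had nearly parallel levels and fell by 0.93 ± 0.18 and 0.98 ± 0.18 (log2, SE).

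**Figure D3:**
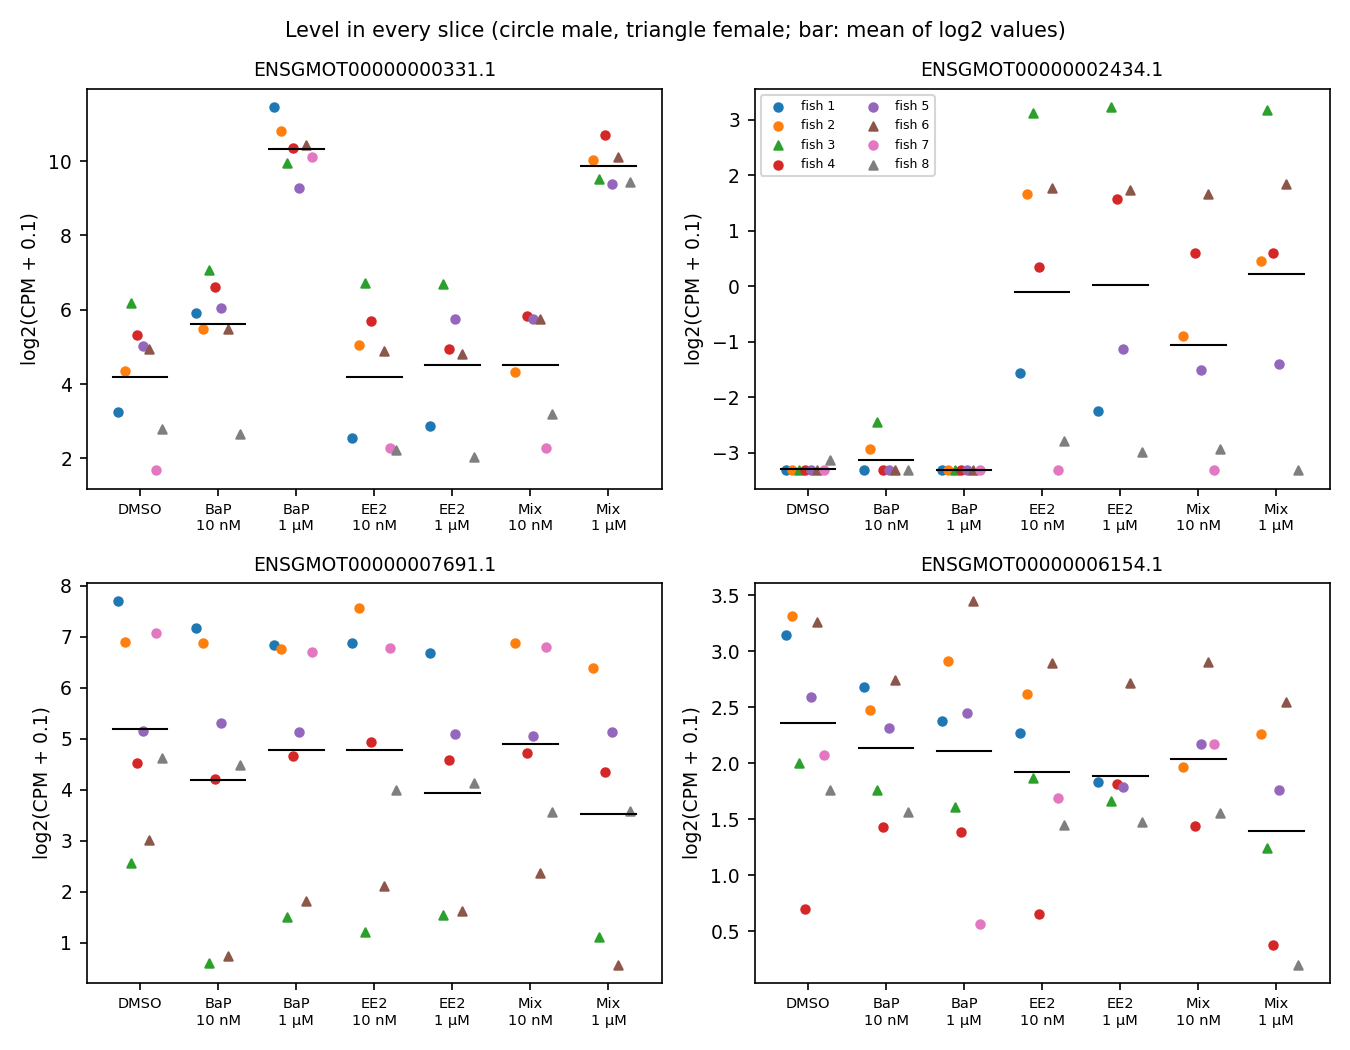
Levels of the 4 named transcripts in every slice of the 7 treatments, as log2 of CPM plus 0.1, with males as circles, females as triangles and bars for the mean of the log2 values. ENSGMOT00000000331.1 is high in BaP 1 µM and Mix 1 µM, ENSGMOT00000002434.1 is detected mainly in treatments with EE2, and both falls overlap between Mix 1 µM and DMSO.

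The question of what each compound contributes can be addressed by setting the other treatments beside Mix 1 µM. These comparisons all use the same 8 DMSO libraries, so the values are given side by side only. For the EE2 group, the median log2 fold change against DMSO was 4.63 in Mix 1 µM, 4.60 in Mix 10 nM, 4.85 in EE2 1 µM and 4.36 in EE2 10 nM, and -0.06 in BaP 1 µM and -0.10 in BaP 10 nM. For the BaP group it was 4.26 in Mix 1 µM and 4.48 in BaP 1 µM, but 0.97 in BaP 10 nM, 0.31 in Mix 10 nM and 0.18 in EE2 1 µM. The remaining 27 rises had medians of 1.14 in EE2 1 µM, 1.06 in EE2 10 nM, 0.77 in Mix 10 nM, 0.16 in BaP 1 µM and 0.20 in BaP 10 nM, beside 1.09 in Mix 1 µM. The EE2 group thus had a similar median in all 4 treatments with EE2, and the BaP group was high in the treatments with BaP at 1 µM. Since Mix 10 nM against BaP 10 nM and BaP 1 µM against BaP 10 nM chose these sets, the medians of those groups are a description. The falls had medians of -0.51 in Mix 10 nM, -0.59 in EE2 1 µM, -0.52 in EE2 10 nM, -0.32 in BaP 1 µM and -0.31 in BaP 10 nM, beside -0.98 in Mix 1 µM.

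**Figure D4:**
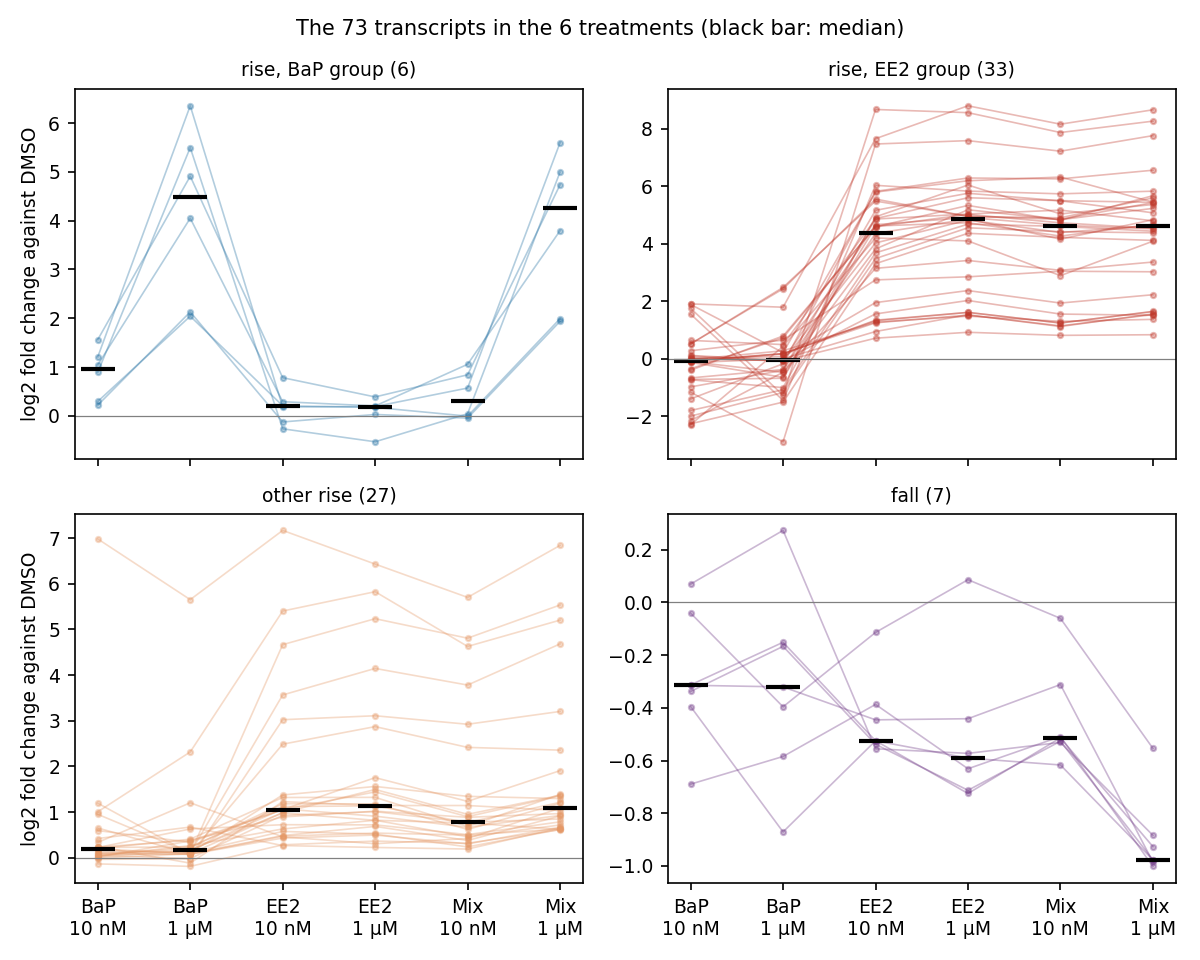
Log2 fold change against DMSO of the 73 called transcripts in each of the 6 treatments, 1 panel per set, with a line per transcript and a black bar for the median. The EE2 group has medians of 4.36 to 4.85 in the 4 treatments with EE2, and the BaP group has medians of 4.26 and 4.48 in the 2 treatments with BaP at 1 µM.

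Few transcripts were called for the 100-fold step in dose of the mixture. Mix 1 µM against Mix 10 nM, a comparison added after the data were seen, called 6 rises (0.0337%) and 0 falls with edgeR's quasi-likelihood test, while 1428 transcripts (8.01%) had an unadjusted p under 0.05, and DESeq2 called 1 fall. Without the Mix 1 µM library of fish 8, 6 were again called but 345 reached an unadjusted p under 0.05, and without both libraries 406. The 6 were the 6 of the BaP group, with a median log2 difference of 3.32 and a range of 1.98 to 5.03. This comparison shares its Mix 1 µM libraries with the one that found the rises. In the EE2 group the median difference between the doses was 0.29, with a range of -0.87 to 1.198 over the 33, and it was 0.067 without the 2 libraries. A miss of the threshold does not show that the doses act alike, and for the 1188-base transcript described above the difference was 0.67 ± 0.37 (log2, SE), and 0.39 ± 0.35 without them.

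Whether the compounds acted together as the sum of their separate effects was tested as an interaction at 1 µM on the log2 scale. edgeR's quasi-likelihood test called 0 of 17824 transcripts, with 440 (2.47%) at an unadjusted p under 0.05. No other tool was run on this contrast, and without the 2 libraries it called 0, with 628 at an unadjusted p under 0.05. A miss of the threshold does not show that the separate effects add up. The rises were called with the same Mix 1 µM and DMSO libraries that enter this contrast, so the medians of the sets are a description. The median interaction was -0.20 over the rises, -0.34 over the BaP group and -0.13 over the EE2 group, against 0.04 over all tested transcripts. Over the 27 other rises it was -0.22, above 0 in 8 of 27 (29.6%) against 55.1% of all tested transcripts. Without the 2 libraries the medians of the rises, the BaP group and the EE2 group were -0.28, -0.17 and -0.21, against -0.01. That of the 27 other rises was -0.40, above 0 in 3 of 27 (11.1%) against 49.1% of all tested transcripts. For ENSGMOT00000000331.1 the interaction was -0.95 ± 0.71 (log2, SE), and -1.38 ± 0.68 without the 2 libraries. For the 1188-base transcript of the EE2 group it was 0.36 ± 0.55, and 0.07 ± 0.53 without them.

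Males and females were compared within the mixture response. The test of sex by Mix 1 µM (female minus male) called 0 transcripts with edgeR's quasi-likelihood test, DESeq2 and limma with sample quality weights, while 2103 (11.8%), 2829 and 1236 transcripts had an unadjusted p under 0.05. That edgeR count fell to 389 without the Mix 1 µM library of fish 8, to 896 without DMSO of fish 2 and to 454 without both. With 3 females and 3 males exposed, and fish 8 being female, sex and that library cannot be told apart in the pooled values. Over the EE2 group the median sex difference was 0.99, above 0 in 25 of 33, and over the BaP group it was -0.79, above 0 in 1 of 6. Over all tested transcripts it was -0.03, above 0 in 48.6%. Without the 2 libraries the medians were 1.005 (27 of 33) and -0.68 (2 of 6), against 0.02 (51.8%). The median log2 change of the EE2 group was 4.60, 2.73 and 1.56 in female fish 3, 6 and 8. It was 3.49, 2.69 and 2.63 in male fish 2, 4 and 5, so only fish 3 among the females was above all males. The 33 transcripts come from the same slices and are not replicates of a sex difference. In 12 of the 73 (16.4%) every female change lay above every male change, and in 2 (2.74%) below. Over all tested transcripts the shares were 3.85% and 5.69%. These counts use the changes of fish 2 and 8, and so the 2 libraries, and were not made without them. None of the 73 had every female move one way and every male the other. Calling a mean change over the fish selects against such a pattern, so this count is no test of it.

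The number of calls varied with the setting. In fits on all 47 libraries it ran from 32 with no block for fish to 153 with limma's sample quality weights, in which the Mix 1 µM library of fish 8 received a weight of 0.0475 and DMSO of fish 2 a weight of 0.0882, ranks 2 and 3 from the lowest of 47. The lowest weight, 0.038, was that of BaP 1 µM of fish 7. Fits restricted to the 14 libraries of the comparison called 2 rises. Once the 2 libraries were left out they called 55 rises and 10 falls, of which 36 and 2 were among the 73. All 6 of the BaP group were called in all 6 fits that left out a fish and all 4 that left out libraries. So were 21 of the 33 in the EE2 group, 4 of the other 27 rises and 1 of the 7 falls.

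**Figure D5:**
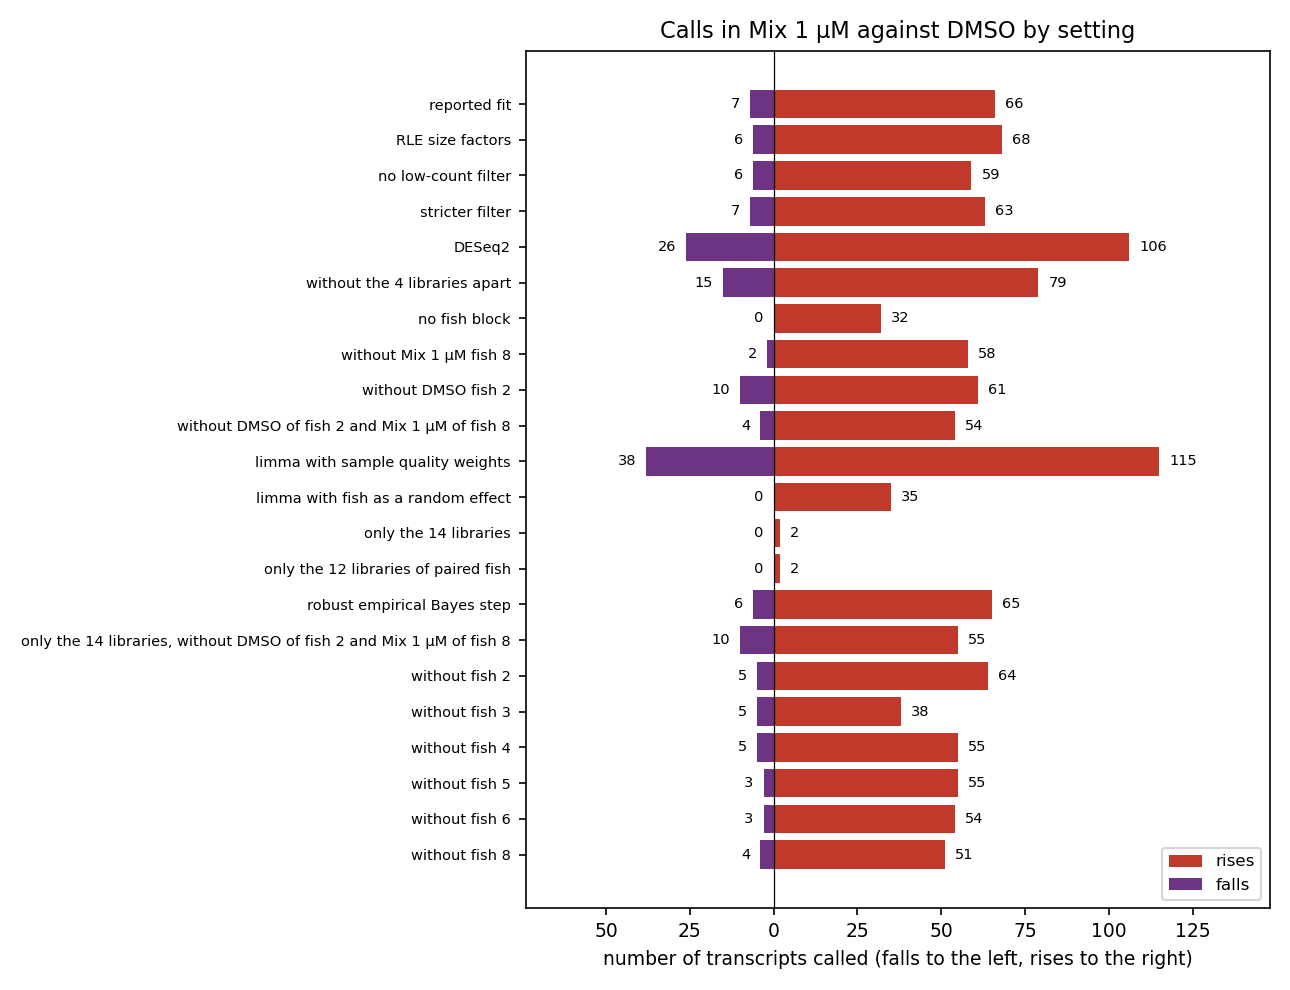
Number of transcripts called in Mix 1 µM against DMSO under each setting, rises to the right and falls to the left. The reported fit gives 66 rises and 7 falls, the fit without DMSO of fish 2 and Mix 1 µM of fish 8 gives 54 and 4, and fits on the 14 libraries alone give 2 and 0.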

How the data were processed

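Per the labels' protocols, frozen slices gave DNase-treated total RNA for stranded mRNA libraries with paired reads. The submitters' processing notes list SAMtools 1.4.1, HISAT2 2.1.0 and FastQC 0.11.5. Not given in the sources used here were the build and the strand setting. Each table deposited by the authors holds raw counts of mapped segments for 22100 transcripts with a length, which was a multiple of 3 in 99.99% and is called coding length. The row for segments on no transcript, 41.8% to 50.8% of all segments in the 14 libraries, was left out. A name table of 33114 genes of gadMor3.0 matched 0 identifiers, so no names, pathway lists, cell type markers or sequences are given, and the liver label could not be checked against markers.

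From these counts, edgeR 4.0.16 in R 4.3.3 fitted all 47 libraries with treatment and fish, TMM factors, the default expression filter (minimum count 10, minimum total 15), the quasi-likelihood F test and Benjamini-Hochberg adjustment at 0.05. SEs are derived from the F statistic, and the prior count was 2. DESeq2 1.42.0 and limma 3.58.1 were alternatives, along with other scalings, filters and left-out libraries or fish. The steps were tested on simulated data. Only transcripts averaging at least 1 CPM were changed there and no library was made to deviate, so those cases are not covered. Fish is the block because slices with 1 number share sex, body weight and liver weight in the labels. Deviations from the group means correlated at 0.50 on average between slices of 1 fish and -0.09 between fish. The value was -0.04 in fish 2, 0.38 in fish 8 and 0.62 to 0.70 in the others. The highest value between different fish was 0.42. Whether the slices of a fish were exposed side by side is not given. With fish as a block, p-values measure the spread between slices that remains after treatment and fish, estimated over all 47 libraries. At most 2 rises and 2 falls are named: the largest rise of the BaP group and of the EE2 group and the largest falls, among calls that averaged at least 0 on the log2 CPM scale and kept their direction in 5 of 6 fish or more. Members and lists were chosen with earlier results of these data known. Reads carry no molecular identifiers, so intervals and the limit of 3 counts cover counting error only.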

Additional observations from a re-analysis of the deposited data

Results flagged for a closer look

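Of 42 sets of values examined, 11 had a value that stood apart from the rest of its group by Dixon's criterion. For normally distributed values chance gives this in about 1 in 20 sets. Many sets here are CPM values, which need not be normally distributed, so that rate is no measure for these 11. In the 6 Mix 1 µM libraries, that of fish 8 stood apart in the number of detected transcripts (15975), the TMM factor (0.572), the mean correlation with other slices of its fish (0.895) and the slope of level on transcript length (-0.52). The same library was highest in the summed level of all rises (30090 CPM), of the EE2 group (15630 CPM) and of the 27 other rises (13750 CPM). In DMSO, fish 1 stood apart for the EE2 group (482.4 CPM), and fish 6 for the 27 other rises (1111 CPM) and for all rises (1499 CPM). For ENSGMOT00000002434.1, the only DMSO library with a count was that of fish 8, at 0.0143 CPM, which is 1 count. A lone count among values of 0 always stands apart by this criterion. These sets are not independent, since several read the same library.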

How the results depend on the processing

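For Mix 1 µM against DMSO, reported as 73 calls (66 rises and 7 falls), DESeq2 gave 132 (106 and 26), limma with sample quality weights 153 (115 and 38) and limma with fish as a random effect 35 (35 and 0). The fit with no replicate block, which ignores the pairing by fish, gave 32 (32 and 0, with 357 at an unadjusted p under 0.05). Only the 14 libraries gave 2 (2 and 0), and so did only the 12 libraries of paired fish. Falls were 2 without Mix 1 µM of fish 8 and 4 without DMSO of fish 2 and Mix 1 µM of fish 8. They were 15 when BaP 10 nM of fish 6 and BaP 1 µM of fish 7 were left out as well. Leaving out 1 fish, Mix 1 µM of fish 8 or DMSO of fish 2 gave 43 to 71 calls, 38 to 64 rises and 2 to 10 falls, with the fewest calls without fish 3. Mix 10 nM against BaP 10 nM fell from 41 calls and rises to 6 with no replicate block, and DESeq2 called 1 fall there, 1 in BaP 1 µM against BaP 10 nM and 1 in Mix 1 µM against Mix 10 nM, where leaving out a fish gave 4 to 6 calls. The 14 libraries without DMSO of fish 2 and Mix 1 µM of fish 8 gave 65 calls (55 rises and 10 falls). The cause of these shifts was not tested. Set medians and interaction counts without these libraries were chosen after the data were seen. No named transcript changed direction under any setting run. Counts stayed within 1.5 times for other scalings and filters. Depth limits levels under about 0.131 CPM, and 8 rises rest on 3 or fewer DMSO counts.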
